A study of Mus musculus with 12 samples.

Results

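Polysome loading of mRNAs in spermatids that lack IGF2BP3 was described from 6 libraries, 3 of RNC-seq (ribosome-nascent chain complex-bound mRNA) and 3 of RNA-seq (the input, a part of the extract taken before the gradient), out of 12 libraries in the series. Both assays were made from spermatids of Igf2bp3-/- mice, a line made from C57BL/6 zygotes in which Cas9 and a guide against an exon of a KH domain left a frameshift. The other 6 libraries came from Igf2bp3+/- mice, the control of the study, whose columns are headed WT. By the methods, testes of 8-week-old males were dissociated and round spermatids were purified by flow cytometry while cycloheximide held ribosomes in place. A sucrose gradient then gave the mRNAs with at least 4 ribosomes for RNC-seq, in both genotypes. By the methods of the paper, poly(A) selection then purified the RNA for the libraries. The line was bred from founder mice with the frameshift. For the experiments that took in these libraries, the paper chose Igf2bp3-/- males whose fertility was impaired. Genes were kept where the mean FPKM (the fragments of a gene scaled to its transcript length and to the mapped fragments of the library) was over 0.1 in both assays, which left 18456 of 28643 gene symbols. Of these, 12915 were protein-coding in the GENCODE annotation.

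Ribosomes load onto an mRNA in proportion to how often translation starts and how long its coding sequence is, and a gradient separates mRNAs with many ribosomes from mRNAs with few or none. Round spermatids make many mRNAs, those of the protamines and transition proteins among them, that are kept in messenger ribonucleoproteins and loaded only after transcription has ceased. IGF2BP3 is an RNA-binding protein of the KH domain family that is known for binding mRNAs and altering their stability and translation.

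The measurement for each gene was the log2 ratio of its FPKM in RNC-seq over its FPKM in RNA-seq, with 0.1 added to every value, and a gene is called polysome-enriched or polysome-depleted below where this ratio passed limma's moderated test at a Benjamini-Hochberg adjusted p of 0.05. FPKM scales every library to its own total. A ratio therefore ranks a gene against the other mRNAs of the same libraries and does not give the share of its molecules on polysomes. Ribosomes on single mRNAs were not counted, so a call is one of FPKM in the gradient fraction. The labels number the replicates and say nothing more of them, while the study calls them biological and isolated spermatids mouse by mouse.

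The input held spermatid mRNAs at high levels. The summed FPKM of the 9 round spermatid markers was 1228 to 1449 in the 3 RNA-seq libraries and 1363 to 1662 in RNC-seq, and that of the 8 elongating spermatid markers was 9949 to 10090 and 10860 to 21600. The 6 Sertoli cell markers that passed the filter summed to 14.4 to 14.9 in RNA-seq and 9.53 to 12.3 in RNC-seq, and the 5 spermatogonial markers to 7.71 to 10.1 in RNA-seq. The 8 spermatocyte markers summed to 315 to 374 in RNA-seq. In these bulk libraries, fewer cells of a type and less RNA per cell cannot be told apart. Igf2bp3 itself stood at 31.7, 32.5 and 31.4 FPKM in RNA-seq and at 43.1, 40.6 and 43.1 in RNC-seq, a log2 ratio of 0.41 ± 0.15 (SE, n = 3 and 3; adjusted p = 0.0762 by limma). In Igf2bp3+/- it stood at 38.2, 38.6 and 33.4 in RNA-seq. A frameshift need not remove the transcript, so this level does not check the genotype label.

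The second RNC-seq replicate stood apart from the other two. Over log2(FPKM + 0.1) of the tested genes, its Pearson r was 0.969 to 0.970 with the RNA-seq libraries and 0.968 with the other RNC-seq libraries, a description across 18456 genes that share libraries. The first and the third RNC-seq replicates correlated at 0.972 with each other and at 0.943 to 0.952 with the RNA-seq libraries. On the first principal component, which held 52.9% of the variance, the RNA-seq libraries lay at 43.6 to 47.4 and the RNC-seq libraries at -57.8, -11.5 and -68.0 in replicate order. The second replicate thus lay between the input and the other polysome libraries, and the totals, and each class whose counts move by over 1.5 times, are given below with and without it. The cause was not tested.

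Polysome-enriched genes numbered 1872 (10.1% of genes tested) and polysome-depleted genes 2008 (10.9%), of which 1029 and 1713 were protein-coding and the others mostly lincRNAs, antisense transcripts and pseudogenes. The median log2 ratio over all tested genes was -0.04, with quartiles of -0.47 and 0.40. The median was 0.95 among enriched genes and -1.09 among depleted genes, and 811 enriched and 1207 depleted genes lay beyond 2-fold. The 3 RNC-seq values did not overlap the 3 RNA-seq values for 3521 genes on the higher side (19.1%) and for 3939 on the lower side (21.3%), which took in 1863 of the enriched and 1994 of the depleted genes. At an unadjusted p of 0.05, 3209 genes (17.4%) lay on the higher and 3405 (18.4%) on the lower side. Enriched calls made up 48.2% of all calls. When each library was rescaled without the 10 most abundant genes, the median of all genes moved from -0.04 to -0.22 and the share of enriched calls was 28.1% (1253 enriched, 3202 depleted). The 1 gene of highest FPKM was CT010467.1, a ribosomal RNA sequence. It took 5.68% to 9.25% of the summed FPKM in RNA-seq and 8.14%, 11.5% and 14.6% in RNC-seq. Both assays used poly(A) selection, so this share does not give the ribosomes of a fraction.

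The 3 replicates moved in the same direction but not by the same amount. For each RNC-seq library against the mean of the 3 RNA-seq libraries, the median ratio of the enriched genes was 1.10, 0.65 and 1.11 and that of the depleted genes was -1.10, -0.86 and -1.31. The second replicate was the one nearest to 0 for 2712 of the 3880 called genes, the first for 755 and the third for 413. These medians come from the same libraries that made the calls and are a description.

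**Figure D1:**
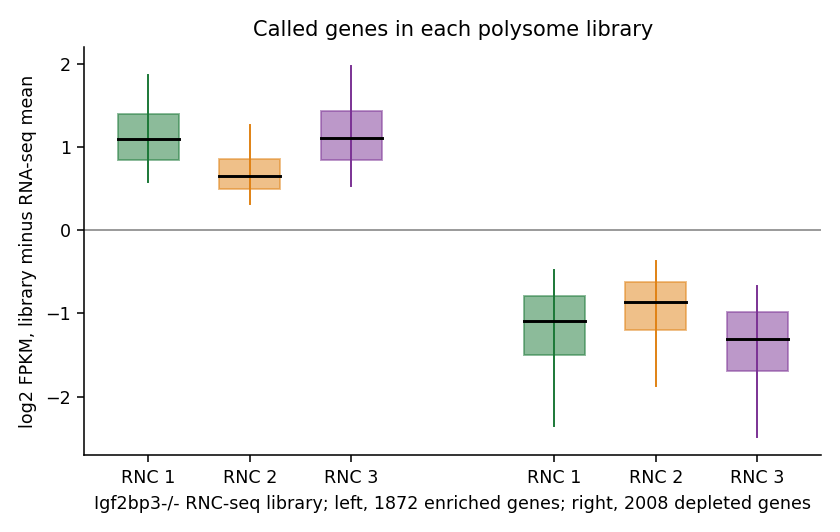
Log2 ratio of each RNC-seq library over the mean of the 3 RNA-seq libraries (vertical axis, log2(FPKM + 0.1)) for the 1872 genes called enriched (left) and the 2008 called depleted (right), colored by replicate, with boxes for the quartiles, bars for the medians and whiskers from the 5th to the 95th percentile. The second replicate lies closest to 0 on both sides, with medians of 0.65 and -0.86.

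A check that did not use the library in question was made by calling genes without 1 RNC-seq replicate and reading their sign in that replicate. With the first replicate held out, 99.0% of 1067 enriched and 95.7% of 1638 depleted genes had the same sign in it. With the third held out, 98.6% of 1050 and 98.6% of 1323 did. With the second held out, the calls numbered 3104 (16.8%) and 3178 (17.2%), and 89.1% and 87.9% of them had the same sign in the second replicate. The median ratio of the latter calls in the held-out library was 0.47 and -0.59, against 0.98 and -1.05 in the other 2 replicates. Because all 3 tests use the same RNA-seq libraries, a deviation in the input enters the calls and the held-out value alike. Of the genes called from all 6 libraries, 1838 enriched and 1956 depleted were also called without the second replicate.

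The spread between replicates was larger in RNC-seq than in RNA-seq at every level of expression. Among 6172 genes with a mean FPKM of 0.1 to 1, the median SD of log2 values was 0.457 in RNC-seq and 0.305 in RNA-seq, and among 1107 genes over 100 it was 0.282 and 0.112. Over the 4 classes from the lowest to the highest level, 1.82%, 10.1%, 17.7% and 26.9% of genes were enriched, and 6.21%, 14.0%, 13.6% and 6.87% were depleted. Enriched calls thus rose with the level and depleted calls were most frequent between 1 and 100 FPKM.

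Enriched genes had shorter annotated transcripts than depleted genes. The median annotated transcript length was 859 nt for enriched, 3725 nt for depleted and 2049 nt for all tested genes, and the median coding sequence was 555, 2472 and 1326 nt. Among 1306 coding genes with a coding sequence of at most 501 nt, the median log2 ratio was 0.52, and 34.8% were enriched and 1.30% depleted. Among 1291 genes with a coding sequence of 3423 nt or more, the median was -0.73, and 1.32% were enriched and 40.1% depleted. In the shortest decile the medians in the 3 RNC-seq replicates were 0.74, 0.28 and 0.60, and in the longest decile they were -0.89, -0.33 and -1.0. All 3 replicates thus had the same order of the short and long mRNAs, with the second replicate again nearest to 0.

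**Figure D2:**
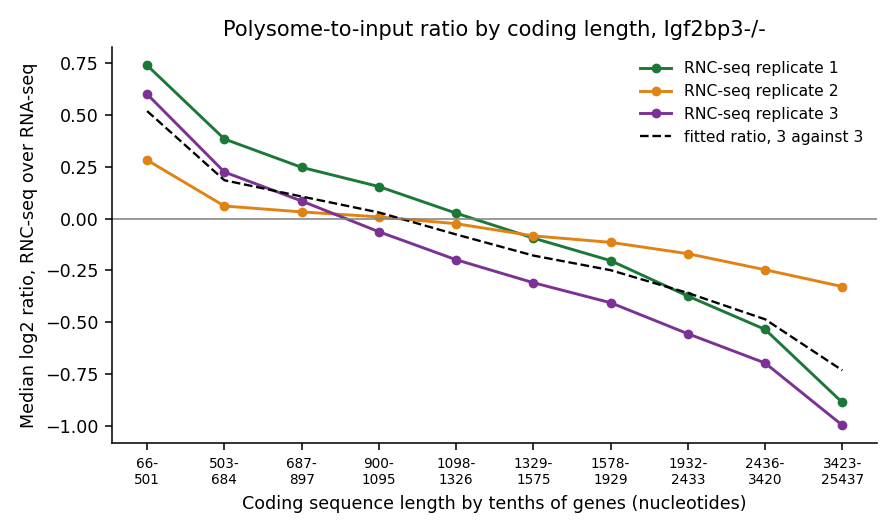
Median log2 ratio of RNC-seq over RNA-seq by decile of coding sequence length (horizontal axis, in nucleotides) for each of the 3 knockout RNC-seq replicates (colored lines) and for the fitted ratio of all 6 libraries (dashed). The medians fall from 0.74, 0.28 and 0.60 in the shortest decile to -0.89, -0.33 and -1.0 in the longest.

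Coding length tracked the ratio more closely than the other features of the transcript. Across 12915 coding genes, Spearman's rho of the log2 ratio was -0.52 with coding sequence length, -0.46 with transcript length and -0.20 with 3′ UTR length, and across 12907 it was 0.06 with GC content. These are descriptions across genes, which share libraries and are not replicates. Among 4676 coding genes with a mean FPKM of at least 10, rho with coding length was -0.68. When the genes were cut into 3 equal classes by each length, the median ratio ran from 0.44 (short coding sequence, short 3′ UTR, 1862 genes) to 0.06 (short, long UTR, 1080 genes), and stayed between -0.44 and -0.51 in every class of long coding sequence. In the middle class of coding sequence the median ratio ran from -0.01 (short UTR) to -0.21 (long UTR). The length of the 3′ UTR thus went with the ratio most where the coding sequence was short, less in the middle class and least in the long one.

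Noncoding transcripts had the same relation to length, with rho of -0.25 across 1482 lincRNAs, -0.25 across 975 antisense transcripts and -0.44 across 1246 processed pseudogenes. The relation was therefore not limited to transcripts with a coding sequence. The FPKM-weighted mean transcript length left out CT010467.1, Gm42418 and AY036118, which were handled as ribosomal RNA. It was 2088 to 2131 nt in the RNA-seq libraries and 1701, 1944 and 1670 nt in the RNC-seq libraries. Between the 3 RNA-seq libraries, the slope of each against the mean of the others on log2 coding length was 0.019, 0.026 and -0.045. The slope of the RNC-seq libraries was -0.379, -0.147 and -0.397 log2 units for each doubling of coding length, a mean of -0.308 ± 0.140 (SD, n = 3). The part of the shorter mean length in the ratios of single genes was not tested.

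Because length was so prominent, most gene classes are given below with a second value, in which a smooth trend on transcript length was taken out of every gene's ratio. After that, 1492 genes were enriched (8.29% of 18006 genes with an annotated length) and 1449 were depleted (8.05%), and 987 and 1165 of them had been called without the correction. The correction was chosen after the length relation had been seen. A gene class whose members are all short or all long loses part of any difference of its own by it. Class counts of the main comparison below are to be read beside the 10.1% enriched and 10.9% depleted of all tested genes. Those without the second RNC-seq replicate are to be read beside 16.8% and 17.2%. Those with the length trend removed are to be read beside 8.29% and 8.05%.

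The coding genes furthest toward enrichment, among those called at a mean level of 10 FPKM or more and without overlap, were mostly short. Of the 12 with the highest ratio, 8 lay in the shortest decile of coding length and none in the longest. Bri3, the gene of brain protein I3, stood at 59.4, 63.2 and 67.7 FPKM in RNA-seq and at 286, 165 and 278 in RNC-seq (log2 1.90 ± 0.22 SE; adjusted p = 0.00201). Ost4, a small subunit of the oligosaccharyltransferase with a coding sequence of 114 nt, stood at 29.7, 27.5 and 35.9 and at 129, 61.5 and 124 (1.69 ± 0.28). Sem1, a small subunit of the proteasome lid, stood at 72.9, 76.2 and 74.5 and at 316, 127 and 309 (1.63 ± 0.31). In all 3 the RNC-seq values lay above every RNA-seq value and the second replicate was the lowest of the RNC-seq libraries.

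The others of the 12 were Rps27rt, Defb14, mt-Co1, Ghrl, mt-Cytb, mt-Nd1, Rhobtb3, Mt2 and Snu13, with log2 ratios from 1.69 to 1.90. Rhobtb3 was the longest, with a coding sequence of 1836 nt and levels of 6.22, 8.41 and 6.401 in RNA-seq and 27.9, 13.2 and 35.1 in RNC-seq. Its ratio was 1.74 ± 0.33, and 2.16 with the length trend removed. Rps27rt has 4 near-identical copies, and Mt2 shares 73.5% of its exon length with a gene on the opposite strand, so the reads of both are uncertain.

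Most of the coding genes furthest toward depletion were very long. Of the 12 coding genes with the lowest ratio under the same conditions, 10 lay in the longest decile of coding length and none in the shortest. Fsip2, which encodes a protein that binds the fibrous sheath of the sperm tail (GRCm38, chr2:82943634-83008937; coding sequence of 20988 nt), stood at 52.5, 44.9 and 41.8 FPKM in RNA-seq and at 4.46, 4.48 and 3.50 in RNC-seq. Its log2 ratio was -3.45 ± 0.18 (adjusted p = 0.000109). The 3 RNC-seq libraries hardly differed for Fsip2, the second replicate included. With the length trend removed the ratio was -2.51.

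Dync1h1, the heavy chain of cytoplasmic dynein, had a ratio of -2.28 ± 0.25, Sptan1, the alpha chain of non-erythroid spectrin, -2.27 ± 0.31 and Lrrc37a, a leucine-rich repeat gene, -2.48 ± 0.29. Dnah12, Dnah17, Dnah8, Dnah6 and Dnhd1 were also among the 12.

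Only Sh3glb1 and Inpp5a among these 12 had coding sequences outside the longest decile, at 1185 and 1269 nt. Sh3glb1, the membrane-bending protein endophilin B1, stood at 199, 172 and 166 in RNA-seq and at 51.3, 27.5 and 23.4 in RNC-seq (log2 -2.47 ± 0.27; adjusted p = 0.00153). Inpp5a, an inositol polyphosphate phosphatase, stood at 24.9, 25.6 and 24.3 and at 5.40, 5.32 and 3.48 (-2.40). With the length trend removed their ratios were -2.60 and -2.21, so both stayed near their first values.

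**Figure D3:**
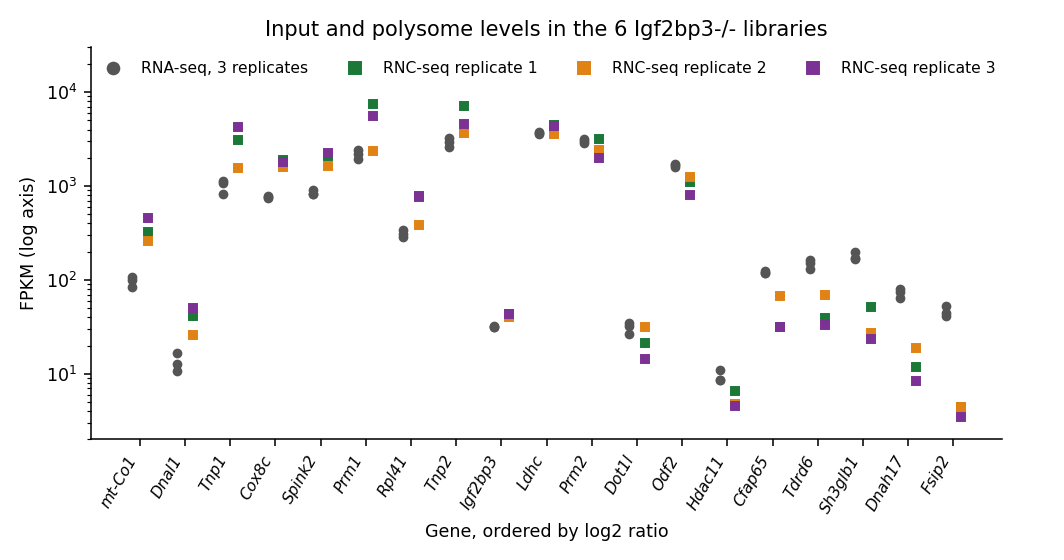
FPKM (log axis) of named genes in each of the 6 knockout libraries, with circles for RNA-seq and a square for each RNC-seq replicate, ordered by log2 ratio. The assays lie apart for Fsip2 and Sh3glb1 and overlap for Ldhc and Prm2.

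Genes that replace histones with protamines were counted first among the classes of spermatid mRNAs. Of 11 tested, 4 were enriched and none was depleted, and the median log2 ratio was 0.73, against -0.04 over all genes. Without the second RNC-seq replicate 7 were enriched, and with the length trend removed 1 was enriched and 1 depleted, with a median of 0.22. Tnp1, transition protein 1, stood at 1119, 1067 and 831 FPKM in RNA-seq and at 3084, 1564 and 4261 in RNC-seq (1.46 ± 0.33; adjusted p = 0.0148). The other enriched members were Hils1, H2afb1 and Hist1h1t, all linker or variant histones, named here because they were called. Prm1, protamine 1, stood at 2410, 2183 and 1959 in RNA-seq and at 7458, 2366 and 5534 in RNC-seq. Its ratio was 1.08 ± 0.36 with an adjusted p of 0.0611, and 1.56 with an adjusted p of 0.000783 without the second RNC-seq replicate, whose value lay within the range of the input.

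Tnp2, transition protein 2, likewise had a ratio of 0.75 ± 0.25 (adjusted p = 0.0577) that became 0.97 (adjusted p = 0.0102) without that replicate. Prm2, protamine 2, stood at 2876, 3001 and 3139 in RNA-seq and at 3178, 2422 and 1989 in RNC-seq, a ratio of -0.27 ± 0.20 (adjusted p = 0.370), and its libraries overlapped. H1fnt, a spermatid linker histone, had a ratio of -0.73 (adjusted p = 0.108). The chromatin genes of late spermatids therefore did not share one ratio.

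Of 17 mRNAs of the sperm tail, 2 were enriched and 3 were depleted, near the shares of all genes (10.1% and 10.9%), with a median of 0.00, or -0.11 with the length trend removed. The enriched members were Odf3 and Odf4 and the depleted ones Fsip2, Odf2 and Spata18. Odf4, of the outer dense fibers, stood at 188, 194 and 213 in RNA-seq and at 290, 470 and 298 in RNC-seq (0.80; adjusted p = 0.0253), with the second replicate the highest. Odf2, a main protein of these fibers, stood at 1606, 1685 and 1736 and at 1118, 1256 and 812 (-0.68; adjusted p = 0.0363). Both are mRNAs named for the same structure, and they lay on opposite sides of the input.

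Of 20 acrosomal mRNAs, 5 were enriched (Spaca3, Spaca4, Spaca9, Spink2 and Tmem190) and 2 were depleted (Zp3r and Dpy19l2). Over all genes 10.1% were enriched and 10.9% depleted. The median of the list was 0.16, a sign that turned to -0.02 under quantile normalization and to -0.05 under the rescaling without the most abundant genes. Spink2, an acrosomal inhibitor of serine proteases, stood at 818, 823 and 905 FPKM in RNA-seq and at 2066, 1617 and 2228 in RNC-seq (1.203 ± 0.18; adjusted p = 0.00388). Zp3r, the zona pellucida 3 receptor of the acrosomal matrix, stood at 119, 120 and 142 and at 72.6, 58.4 and 50.1 (-1.09; adjusted p = 0.00546). Of the 6 testis-specific serine kinases, Tssk1 was enriched (0.53) and Tssk5 was depleted (-1.16), and without the second RNC-seq replicate 2 were enriched.

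Genes of mitochondrial respiration were the class with the most enriched members beside the ribosomal proteins. Of 79 nuclear-encoded subunits of oxidative phosphorylation, 49 were enriched and 2 were depleted, with a median ratio of 0.95, or 0.55 with the length trend removed. Their summed FPKM was 7544 to 8348 in RNA-seq and 17330, 12260 and 16470 in RNC-seq. Cox8c, a testis-specific subunit of cytochrome c oxidase, stood at 762.5, 779 and 746 and at 1909, 1581 and 1791 (1.203 ± 0.16; adjusted p = 0.00279). The depleted members were Sdha, the flavoprotein of succinate dehydrogenase, at -0.67 and Ndufs1, the largest subunit of complex I, at -0.66. Sdha stood at 51.9, 54.5 and 59.7 in RNA-seq and at 42.2, 34.5 and 28.5 in RNC-seq, and both have coding sequences near 2 kb, at 1995 and 2184 nt. Of the 79 genes, 11 have a near-identical copy elsewhere. Without the second RNC-seq replicate, 61 were enriched and 2 depleted.

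The 13 mRNAs encoded in mitochondrial DNA, which mitochondrial ribosomes translate, were in the RNC-seq libraries as well. Of them 8 were enriched (11 without the second RNC-seq replicate) and none was depleted, and the median was 1.67, or 1.08 with the length trend removed. Their summed FPKM was 173 to 208 in RNA-seq and 659, 453 and 811 in RNC-seq. mt-Co1, the first subunit of cytochrome c oxidase, stood at 84.98, 101 and 109 and at 328, 258 and 457 (1.79 ± 0.22; adjusted p = 0.00226). The mitochondrial ribosomal RNAs moved with them, at a summed 325 to 397 in RNA-seq and 2744, 3030 and 6587 in RNC-seq. For mt-Rnr2, the large one of the pair, the log2 ratio was 3.47 ± 0.31 (adjusted p = 0.00108).

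Messages for the cytosolic ribosome were enriched. Of 78 ribosomal protein genes tested, 51 were enriched and none was depleted, with a median of 0.78, or 0.47 with the length trend removed. Their summed FPKM was 6426 to 6614 in RNA-seq and 13830, 8619 and 13800 in RNC-seq, the second replicate being the lowest of the 3. Rpl41, the shortest of them in protein, stood at 337, 307 and 285 and at 761.6, 386 and 777 (0.98 ± 0.26; adjusted p = 0.0279). Rplp0, the stalk protein, stood at 386, 420 and 411 and at 522, 403 and 413 (0.13; adjusted p = 0.625), so its libraries overlapped. Near-identical copies exist for 51 of the 78 genes, and the division of reads among them is uncertain. Without the second RNC-seq replicate 70 were enriched.

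Other mRNAs with a terminal oligopyrimidine tract, which code for further parts of the translation machinery, were not enriched as a class. Of 16 tested, Eef1b2, Naca and Btf3 were enriched and Pabpc1, Nap1l1 and Eif4b were depleted, against 10.1% and 10.9% of all genes. Without the second RNC-seq replicate 5 were enriched and 3 depleted. The median was 0.04, negative under quantile normalization (-0.22) and under the rescaling (-0.16). Of 33 translation initiation factors, none was enriched and 7 were depleted, against the same shares of all genes. The median was -0.22, or -0.13 with the length trend removed, when 7 were depleted and none was enriched. Without the second RNC-seq replicate 3 were enriched and 9 depleted. The 7 of the main comparison, named because they were called, were Eif3a, Eif3c, Eif4g1, Eif4g2, Eif4g3, Eif5 and Eif5b. Their coding sequences were 1290 to 5289 nt, against a median of 987 nt for the 26 not called. Eif5b, the GTPase of subunit joining, stood at 16.3, 14.3 and 16.3 in RNA-seq and at 6.74, 3.98 and 2.85 in RNC-seq (-1.85 ± 0.28).

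The axonemal dyneins were the class with the lowest median. Of 20 tested, 12 were depleted and 1 was enriched, and the median was -1.77, or -1.03 with the length trend removed and -2.0 without the second RNC-seq replicate. With the length trend removed 12 were depleted and 3 enriched. All 12 depleted in the main comparison were among the 15 heavy chains, whose depleted members had coding sequences of 11883 to 14253 nt. Dnah17, a heavy chain of the outer arm, stood at 74.6, 79.9 and 64.0 FPKM in RNA-seq and at 11.8, 18.7 and 8.44 in RNC-seq (-2.55 ± 0.27; adjusted p = 0.00143). Dnah12, a heavy chain of the inner arm, stood at 18.5, 19.7 and 18.3 and at 2.57, 4.29 and 2.55 (-2.59 ± 0.22). The 5 intermediate and light chains had coding sequences of 420 to 2106 nt and none was depleted. Dnal1, a light chain of the outer arm, was enriched, at 10.8, 12.7 and 16.7 in RNA-seq and 40.9, 25.8 and 50.7 in RNC-seq (1.51 ± 0.26; adjusted p = 0.00631). Subunits of one motor thus lay at both ends of the ratio. Of the heavy chains not called, Dnah5 and Dnah9 were near the filter, at a mean of 0.138 and 0.476 FPKM in RNA-seq, with ratios of -0.22 and 0.47. The other one, Dnah7a, stood at 12.5, 13.4 and 12.3 in RNA-seq and at 10.1, 11.8 and 10.9 in RNC-seq (-0.22 ± 0.16; adjusted p = 0.371) in spite of its length. The values of Dnah7a, Dnah7b and Dnah7c are uncertain, since the 3 are near-identical copies.

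**Figure D4:**
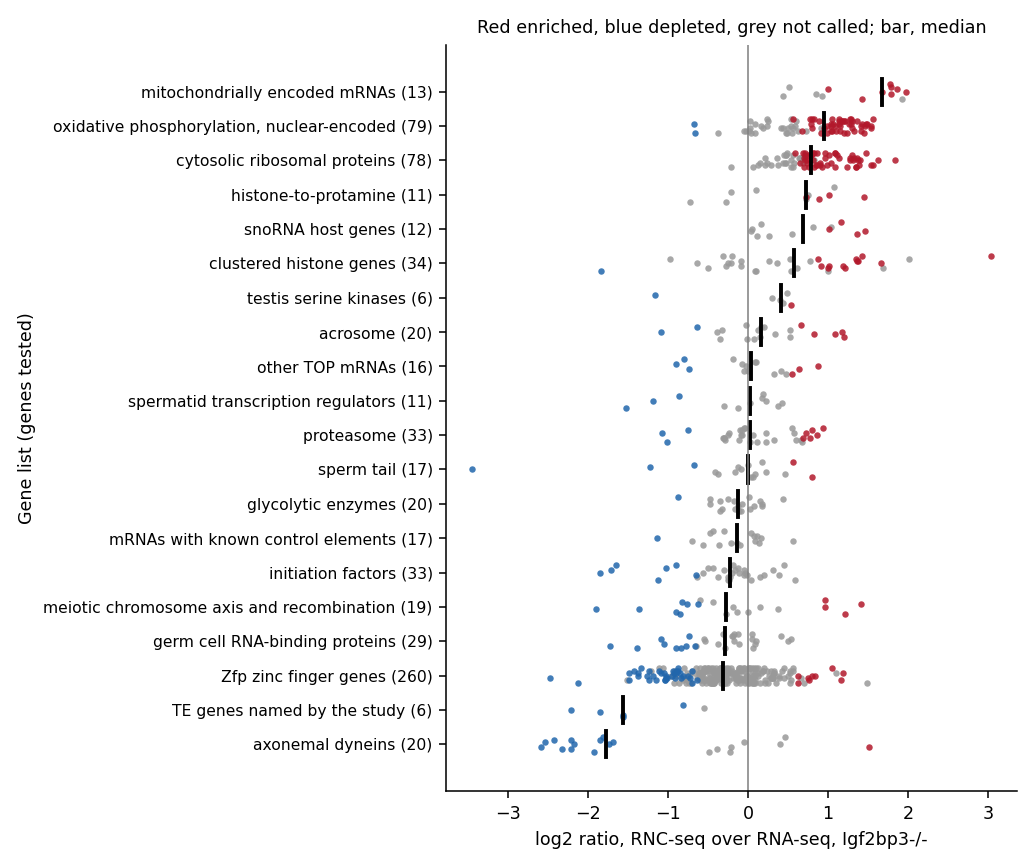
Log2 ratio of RNC-seq over RNA-seq (horizontal axis) for each tested member of 20 gene lists (rows, number tested in parentheses), red for enriched, blue for depleted, grey for not called, with a black bar at the list median. The medians run from 1.67 for mitochondrially encoded mRNAs to -1.77 for axonemal dyneins.

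RNA-binding proteins of germ cells had 9 depleted and no enriched members among 29 tested, against 10.9% and 10.1% of all genes. Without the second RNC-seq replicate 10 were depleted and 2 enriched. The median was -0.29, or -0.13 with the length trend removed, when 5 were depleted and 1 was enriched. Among the depleted members of the main comparison, named because they were called, were Piwil1, Tdrd1, Tdrd6, Ddx4, Dazl, Fxr1, Papolb and Ythdf2. Ddx4, the VASA helicase of germ granules, stood at 264, 266 and 304 in RNA-seq and at 121, 108 and 91.5 in RNC-seq (-1.39 ± 0.17; adjusted p = 0.00210). Tdrd6, a Tudor protein of the chromatoid body, stood at 153, 163 and 131 and at 39.3, 68.7 and 33.2 (-1.73; adjusted p = 0.00379). Mael, a piRNA pathway protein at 439 to 468 FPKM in RNA-seq, had a ratio of -0.32 (adjusted p = 0.322).

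Of 19 genes of the meiotic chromosome axis and recombination, 4 were enriched and 7 were depleted, against 10.1% and 10.9% of all genes. The median was -0.28, or -0.27 with the length trend removed, when 4 were enriched and 3 were depleted. Tex12, a small component of the synaptonemal complex, stood at 1.28, 1.74 and 1.64 FPKM in RNA-seq and at 5.23, 2.55 and 5.79 in RNC-seq (1.41). Sycp2, a protein of the chromosome axis with a coding sequence of 4503 nt, stood at 12.3, 12.5 and 13.3 and at 3.87, 3.19 and 2.91 (-1.91 ± 0.18). Here too the ends of the list were a short and a long mRNA.

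Clustered histone genes have mRNAs that mostly end in a stem-loop without a poly(A) tail. How much of these mRNAs the poly(A) selection kept in each assay was not tested. In all, 34 of 64 symbols were tested, the others lying under the filter. Of these 12 were enriched and 1 was depleted, and the median was 0.58, or 0.26 with the length trend removed and 0.93 without the second RNC-seq replicate. Hist1h4a stood at 52.1, 50.6 and 59.0 in RNA-seq and at 185, 110 and 147 in RNC-seq (1.42). Hist2h2ac had the highest ratio, at 1.01, 3.53 and 0.967 and at 18.2, 13.0 and 9.97 (3.04 ± 0.44), and Hist1h1a was the depleted one (-1.85).

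Among 260 Zfp zinc finger genes, 9 were enriched and 37 were depleted, and the median was -0.32. The shares were 10.1% and 10.9% of all genes, and 8.0% and 13.3% of coding genes. Without the second RNC-seq replicate 15 were enriched and 59 depleted. With the length trend removed 17 were enriched and 17 depleted, with a median of -0.07. Of 12 host genes of small nucleolar RNAs, which are spliced but code for little protein, 4 were enriched (Snhg3, Snhg6, Snhg8 and Snhg10) and none was depleted, with a median of 0.68. Snhg8 stood at 18.9, 16.7 and 17.8 in RNA-seq and at 56.7, 32.2 and 65.2 in RNC-seq (1.46). Of 3 nuclear long noncoding RNAs, none was called, and Malat1 had a ratio of -0.39.

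The proteasome gave 6 enriched and 3 depleted members of 33, against 10.1% and 10.9% of all genes (8.0% and 13.3% of coding genes). Without the second RNC-seq replicate it gave 13 and 3. The median was 0.02 (-0.10 and -0.18 under quantile normalization and rescaling). Psmb6, a catalytic core subunit, was enriched (0.94) and Psme4, the long activator that acts on histones in spermatids, was depleted (-1.08). Among 20 glycolytic enzymes 1 was depleted (Pfkp, -0.88), and Ldhc, the testis form of lactate dehydrogenase, stood at 3569, 3785 and 3696 in RNA-seq and at 4501, 3606 and 4406 in RNC-seq (0.17; adjusted p = 0.520; -0.28 under quantile normalization). Among 17 mRNAs known for control elements in their untranslated regions 1 was depleted (Azin1, -1.14). Of 11 regulators of spermatid transcription and chromatin, 3 were depleted (Rfx2, Brwd1 and Tlk2). Without the second RNC-seq replicate 3 glycolytic enzymes and 2 of the mRNAs with control elements were depleted, and 2 of the regulators were enriched. Most members of these 4 lists were not called. In the main comparison the glycolytic and control-element lists had a depleted share under the 10.9% of all genes.

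A list of 6 genes that the study had named in its work on translation efficiency was read in the knockout alone. The study reported them as IGF2BP3 targets with higher translation efficiency in the knockout than in Igf2bp3+/-. It also drew on eCLIP and, for some of them, on RIP-qPCR and protein levels. A ratio within the knockout is a different measure and does not bear on that difference. Since the study picked these genes in part from the same libraries, their count is not independent evidence of a direction. In the knockout 5 were depleted (Cfap65, Chd5, Dnah2, Dnhd1 and Hdac11), the median was -1.56, or -1.0 with the length trend removed, and without the second RNC-seq replicate all 6 were depleted. Cfap65, a protein of the sperm flagellum, stood at 118, 117 and 124 in RNA-seq and at 31.2, 68.1 and 31.3 in RNC-seq (-1.56 ± 0.28; adjusted p = 0.00681). Hdac11, a histone deacetylase, stood at 11.03, 8.52 and 8.50 and at 6.50, 4.79 and 4.59 (-0.82 ± 0.21; adjusted p = 0.0230).

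Dot1l, the methyltransferase of histone H3 lysine 79, was the member not called. It stood at 34.7, 32.3 and 26.7 in RNA-seq and at 21.2, 31.3 and 14.2 in RNC-seq, a ratio of -0.55 ± 0.27 (adjusted p = 0.170). The second RNC-seq value lay within the input, and without it the ratio was -0.83 (adjusted p = 0.0150). With the length trend removed the ratio of Dot1l was -0.03. Actb, for comparison, stood at 392, 431 and 418 and at 581, 485 and 381 (0.20; adjusted p = 0.478; -0.09 under quantile normalization).

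Transcript types other than mRNA were found in both polysome classes. Of 1482 lincRNAs, 18.0% were enriched and 4.05% depleted, with a median of 0.35, and of 975 antisense transcripts 16.6% and 3.69%, with a median of 0.26. Of 1246 processed pseudogenes 15.7% were enriched and 5.06% depleted. Coding genes had 8.0% and 13.3% and a median of -0.14. The median lengths were 859, 893 and 589 nt for these 3 noncoding types and 2671 nt for coding genes, and with the length trend removed the medians were 0.08, 0.01, -0.21 and 0.00. Gm20632, an antisense transcript, stood at 13.7, 14.8 and 10.3 in RNA-seq and at 71.0, 44.4 and 39.9 in RNC-seq (1.96), and Gm17611, a transcript that the annotation leaves unclassified, at 37.2, 34.1 and 37.0 and at 3.04, 4.30 and 4.05 (-3.23 ± 0.18). Antisense and overlapping transcripts can share reads with their partners.

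Markers of other cells of the testis were read in the same libraries. The 7 Leydig cell markers tested summed to 48.7 to 55.2 FPKM in RNA-seq and to 103, 61.9 and 51.5 in RNC-seq, most of it Insl3, while 2 of the 7 were depleted and the median was -0.55. Of 12 markers of macrophages and blood, 3 were enriched (the globin genes Hba-a1, Hbb-bs and Hbb-bt), with sums of 21.6 to 24.1 and of 47.7, 24.99 and 44.8. Of the 6 Sertoli cell markers 1 was depleted, and of the 3 peritubular and 5 spermatogonial markers none was called. Their part in the ratios of other genes was not tested.

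The same comparison in the Igf2bp3+/- libraries, which share no library with the knockout, gave 3331 enriched (18.6%) and 4503 depleted genes (25.1%) of 17942 tested. Of the knockout calls, 1617 enriched (86.4%) and 1783 depleted (88.8%) were called in the same direction in Igf2bp3+/-, which are 48.5% and 39.6% of the Igf2bp3+/- calls, and none was called in the opposite direction. Across 17408 genes tested in both, Pearson's r of the ratios was 0.835 and the slope of the knockout on the Igf2bp3+/- ratios was 0.636, a description across genes. Without the second knockout RNC-seq replicate they were 0.842 and 0.749. All 24 coding genes of the strongest ratios had the same sign in both genotypes.

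**Figure D5:**
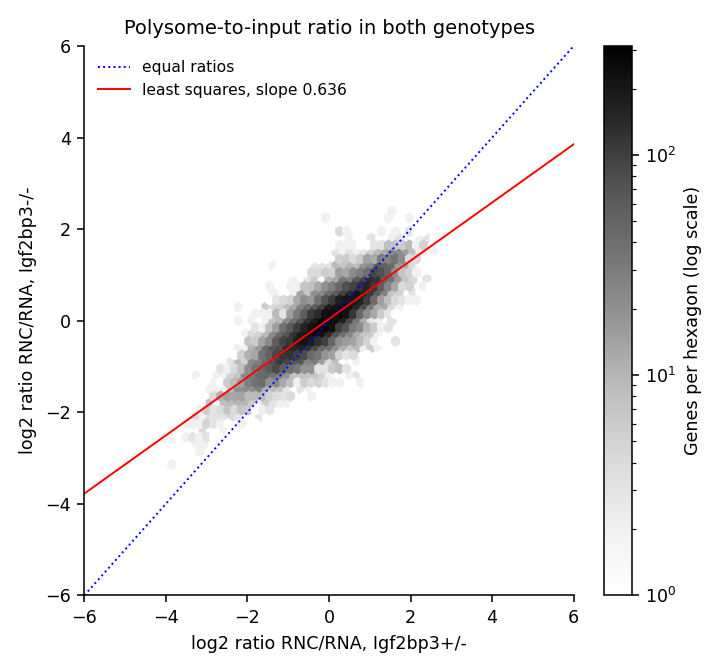
Log2 ratio of RNC-seq over RNA-seq in Igf2bp3-/- (vertical axis) against that in Igf2bp3+/- (horizontal axis) for 17408 genes, shaded by genes per hexagon on a log scale, with the least-squares line (slope 0.636) and the line of equal ratios (dotted). The cloud follows the line but is flatter than equality.

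The difference between genotypes was tested over all 12 libraries as the interaction of genotype and assay. Of 18414 genes, 1 had a higher ratio in the knockout (0.00543%) and none a lower one, by limma at an adjusted p of 0.05, and an unadjusted p of 0.05 was passed by 1021 with a higher and 291 with a lower ratio. These became 492 and 1080 under median centring, and 729 and 839 without the second Igf2bp3+/- replicate, so the balance turned with these choices. No member of any gene list was called. For Dot1l the ratio was -1.41 in Igf2bp3+/- (interaction adjusted p = 0.686), for Hdac11 -1.43 (0.689). The median ratio of the axonemal dyneins was -2.50 in Igf2bp3+/- against -1.77, of the ribosomal proteins 1.19 against 0.78 and of the mitochondrially encoded mRNAs 2.20 against 1.67. Without the second knockout RNC-seq replicate, the knockout medians of these lists were -2.0, 0.96 and 1.96. Other lists lay nearer 0 in Igf2bp3+/-. The histone-to-protamine genes had a median of 0.42 there against 0.73, the snoRNA host genes 0.52 against 0.68 and the Zfp genes -0.25 against -0.32. The slope on coding length was -0.505, -0.416 and -0.380 in Igf2bp3+/- (-0.434 ± 0.064, n = 3) and -0.308 ± 0.140 in the knockout (two-sided exact permutation p = 0.2; 3 against 3 libraries cannot go below 0.1). A p above the threshold here does not show that the genotypes are alike.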

How the data were processed

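The series held 1 table of FPKM values for 12 libraries. By the methods and the submitters' processing notes, the authors converted base calls with CASAVA 1.8, trimmed reads with Trim Galore 0.6.6, aligned them to GRCm38 with HISAT2 and estimated the deposited FPKM values with StringTie 2.1.7. The annotation release was not given in the sources used here. FPKM values carry no read counts, so the depth per library is unknown, and no counting interval was given. The 6 knockout libraries had 21831 to 25633 symbols above 0, and 870 tested genes were listed at 0 in at least 1 of them.

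Of 28668 rows, 25 with dates for gene names (0.0995% of the FPKM) were left out. Values were taken as log2(FPKM + 0.1), genes with a mean over 0.1 in both assays were kept, and RNC-seq was compared with RNA-seq in limma 3.58.1 (trended moderated test, R 4.3.3) with Benjamini-Hochberg adjustment. Fold changes are on this scale, which understates the change of genes of low FPKM. The interaction of genotype and assay was fitted over 12 libraries in 4 groups. Symbols were matched to GENCODE M21 (GRCm38), with 18006 of 18456 tested genes matched, and lengths are those of the transcript with the longest coding sequence. Near-identical copies were found with BLAST 2.17.0. The length trend was a loess curve with a span of 0.3. The fit of RNC-seq against RNA-seq and the interaction fit were tested on simulated data.

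Named genes were the 12 highest and 12 lowest ratios among called coding genes of 10 FPKM or more on average whose libraries did not overlap, the 6 highest and lowest noncoding ones, the 10 highest RNA-seq levels, and up to 4 members of a list (its 2 most abundant and its ends), beside Igf2bp3, Actb, Dot1l and Hdac11. Some genes that meet this rule are not reported here. Members that were called in a list and lie outside this rule were named after their values were seen. The genes and lists were chosen with earlier results of these data known. By the methods, the input was a part of the extract that was then fractionated, but the sources used here do not say that equal numbers mark the same extract. Correlations of the deviations of RNC-seq and RNA-seq libraries were -0.021, 0.084 and 0.069 for equal replicate numbers. For unequal numbers they ran from -0.096 to 0.023. These small values do not settle whether the libraries were paired. The main fit used no block, and counts with a replicate block are given below. Alternatives were other pseudocounts, filters, scalings, library weights, the replicate block and leaving out each library.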

Additional observations from a re-analysis of the deposited data

Results flagged for a closer look

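Gm45062 was the 1 gene whose ratio of RNC-seq over RNA-seq differed between the genotypes by limma's interaction test (adjusted p = 0.00714). In Igf2bp3-/- it stood at 1.43, 0.993 and 1.07 FPKM in RNC-seq and at 0.599, 1.27 and 1.14 in RNA-seq. In Igf2bp3+/- it stood at 1.04, 0.866 and 1.33 in RNA-seq and was listed at 0 in all 3 RNC-seq libraries, so no fold is given. The annotated gene (GRCm38, chr6:8259450-8597480) lies wholly over exons of other genes on the same strand, and its reads cannot be told apart from theirs. No gene was called under a pseudocount of 1, under the replicate block, without the third Igf2bp3-/- replicate, or without any 1 of the 3 Igf2bp3+/- replicates. At a mean FPKM over 1 in both assays this gene was not tested.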

How the results depend on the processing

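Leaving out 1 library at a time gave 501 to 3104 enriched and 659 to 3178 depleted genes. Both highest counts came without the second RNC-seq replicate, and both lowest without the first RNA-seq replicate. Without the second or the third RNA-seq replicate the counts were 600 and 872 enriched and 819 and 871 depleted, and without the first or the third RNC-seq replicate they were 1067 and 1050 enriched and 1638 and 1323 depleted. Rescaling each library without the 10 most abundant genes gave 3202 depleted genes, and the cause was not tested. Under the other alternatives enriched counts were 1253 to 2500 and depleted counts 1449 to 2575, each within 1.5 times the value reported. With the replicate block there were 2019 enriched and 2104 depleted genes, and the interaction called 0 genes with it. The interaction also called 0 genes at a pseudocount of 1 and at a mean FPKM over 1, and 0 to 2 genes when replicates were left out. The median ratio of all genes, taken in pairs of the same replicate number, was -0.03 ± 0.12 (SD, n = 3) in the knockout and -0.11 ± 0.14 (n = 3) in Igf2bp3+/- (two-sided exact permutation p = 0.6), and without the replicate block the difference was 0.07 with an exact permutation p of 0.4.

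Of the log2 ratios of 63 named genes under the alternatives, 696 kept their direction and side of the threshold, 20 gained and 32 lost a call, and 8 changed sign. The latter were Ldhc (-0.28 with quantile normalization, -0.0288 rescaled), Ubb (-0.0732 with quantile normalization), Actb (-0.0897 with quantile normalization, -0.0018 rescaled) and Ybx2 (-0.0349 with quantile normalization, -0.16 rescaled, and -0.103 to 0.189 when 1 library was left out, negative without the first RNC-seq replicate). None of these 4 genes was called in the main comparison. Of the list medians, 334 moved by less than the spread between replicates and 43 by more.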

Other observations

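Some of the most abundant transcripts of the input differed widely between the RNC-seq libraries. Gm42418, handled above as ribosomal RNA, stood at 7553, 4494 and 6845 FPKM in RNA-seq and at 1270, 1491 and 16120 in RNC-seq. Its value in the third RNC-seq replicate lay above the input and the other 2 lay below it. Meig1, a protein of the spermatid manchette, stood at 2112, 2038 and 2252 in RNA-seq and at 4132, 2214 and 3971 in RNC-seq, a log2 ratio of 0.64, with the second RNC-seq replicate within the range of the input. Tuba3a, a testis alpha-tubulin, stood at 1718, 2051 and 2417 in RNA-seq and at 1737, 931 and 877 in RNC-seq, a log2 ratio of -0.86 (adjusted p = 0.0491 by limma).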
